A study of Mus musculus with 6 samples.

Results

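The genes described here are 10 members of the interleukin-6 cytokine family and its receptors, taken from the 24421 rows of a table of gene levels in lineage-sorted cells of the mouse aorta. They are the ligands *Il6*, *Il11* and *Lif*, the receptors *Il6ra*, *Il6st*, *Lifr*, *Osmr* and *Il11ra1*, and *Il11ra2* and *Gm13305*, which are near copies of *Il11ra1* on chromosome 4. The members were matched by symbol, and all 10 were found. *Gm13305* was chosen from its values in these same libraries, because it was the only gene past the threshold when second heart field (SHF) and cardiac neural crest (CNC) libraries were compared with a pseudocount of 5. Its levels in the lineages are therefore given as a description with no test, and the other members were chosen by name, as the *Il11ra* copies and genes of the interleukin-6 family.

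There were 6 bulk RNA sequencing libraries, 3 for each lineage of origin, and the table's column names mark all 6 as WT. In the SHF libraries cells were marked by *Mef2c SHF* Cre, and in the CNC libraries by *Wnt1-Cre2*, each recombining a conditional *CAG-Sun1/sfGFP* tracer that both lineages carried. Mice were 8 weeks old on the 129S6/SvEv background, and live GFP+ cells were sorted from the aortic root and ascending aorta. Such a tracer marks every cell whose ancestors expressed the Cre, whatever cell type it has become. Levels are TPM (transcripts per 1000000), a measure scaled for transcript length, so levels may be set beside each other between genes. The total is 1000000 TPM in every library, the number of reads behind a value is unknown, and a 0 means only that a gene was listed at 0. Where 3 values follow each other for a lineage, they are replicates 1, 2 and 3 in that order. Adjusted p-values are from a limma fit over all genes that passed a filter, with Benjamini-Hochberg adjustment, and log2 differences are SHF minus CNC of log2(TPM + 1) unless another direction is given.

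Cytokines of this family signal through gp130, the shared receptor chain encoded by *Il6st*. Interleukin-6 and interleukin-11 first bind their own alpha receptors, encoded by *Il6ra* and *Il11ra1*, and the complex then recruits gp130. Leukemia inhibitory factor joins gp130 to the chain encoded by *Lifr*, and oncostatin M joins it to the chain encoded by *Osmr*. The joined receptors activate JAK kinases and STAT3, whose target *Socs3* encodes a feedback inhibitor. In the vessel wall, interleukin-11 signaling is known from fibroblasts and smooth muscle cells.

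The sequences of the 3 *Il11ra* genes are shown first, since they set which bases can tell the rows apart. In GENCODE M21 on GRCm38, the build also called mm10, *Il11ra1* lies on the plus strand of chromosome 4 at chr4:41699989-41769474, and *Gm13305* on the minus strand at chr4:42158842-42168603. *Il11ra2* lies on the minus strand at chr4:42656355-42661893. All 3 are annotated as protein coding, with a coding sequence of 1299 bases for 432 residues. The coding sequences of *Gm13305* and *Il11ra2* were identical at all 1299 bases. Those of *Gm13305* and *Il11ra1* differed at 13 bases, which left 99.0% identical, and the first 356 coding bases held no difference. At the protein level *Gm13305* and *Il11ra1* differed at 4 of 432 residues, written A283T, P319L, P345L and D401E with the *Il11ra1* residue first and positions counted from the initiator methionine. The stretch of 120 coding bases with the most differences, coding bases 943 to 1062 counted from the start codon, is printed with its 4 differing bases in capitals, which are C956T, C993T, C1034T and G1062A with the *Il11ra1* base first.
Il11ra1: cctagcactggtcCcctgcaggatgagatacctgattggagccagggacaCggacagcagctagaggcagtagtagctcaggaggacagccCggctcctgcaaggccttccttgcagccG
Gm13305: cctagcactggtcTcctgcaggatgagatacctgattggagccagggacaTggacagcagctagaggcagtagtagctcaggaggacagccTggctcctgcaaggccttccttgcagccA
Il11ra2: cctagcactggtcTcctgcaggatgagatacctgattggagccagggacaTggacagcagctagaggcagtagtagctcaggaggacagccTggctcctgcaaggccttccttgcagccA

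Bases outside the coding sequence were also compared. The *Il11ra2* transcript in this annotation began and ended with the coding sequence. The transcripts of *Gm13305* and *Il11ra1* had 300 and 356 bases before it and 354 bases after it in each. RefSeq gives *Il11ra2* a wider span, chr4:42655275-42665763, so any transcript bases of it outside the coding sequence were not compared. The 250 bases upstream of the *Gm13305* start in RefSeq, on the minus strand at chr4:42168604-42168853 of GRCm38.p6, are printed because the window for *Il11ra2* matched it at all 249 bases that could be aligned, with the starts 1 base apart. No stretch of 12 bases in it was found, on either strand, in the upstream windows of the 2 *Il11ra1* starts.
Gm13305 upstream window: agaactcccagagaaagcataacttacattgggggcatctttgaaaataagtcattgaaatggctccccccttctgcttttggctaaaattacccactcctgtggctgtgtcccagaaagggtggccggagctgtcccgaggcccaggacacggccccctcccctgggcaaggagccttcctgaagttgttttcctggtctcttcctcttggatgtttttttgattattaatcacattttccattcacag

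The transcripts were then cut into every possible stretch of 50 bases, a length chosen because the read length was not given in the sources used here. Of the 1904 such stretches in *Gm13305*, 52.7% were also found in *Il11ra1* and 65.7% in *Il11ra2*. Stretches found in neither made up 20.6%, and of these 392 none lay within the coding sequence, 160 lay wholly before it and 185 wholly after it. The *Il11ra2* transcript, which holds only the coding sequence in this annotation, had no stretch of its own, since 100% of its 1250 stretches were found in *Gm13305*. Whether the stretches of *Gm13305* outside the coding sequence also occur in longer models of *Il11ra2* was not tested. *Il11ra1* had more stretches of its own, with 53.5% of its 1960 stretches in neither copy, 509 of them within the coding sequence. None of the stretches of the 3 genes was found in any other gene of the annotation. RSEM, the program that made these values, divides a read that matches several transcripts among them by their estimated abundances. In these models a read within the coding sequence could therefore be shared between *Gm13305* and *Il11ra2* at any position.

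**Figure D1:**
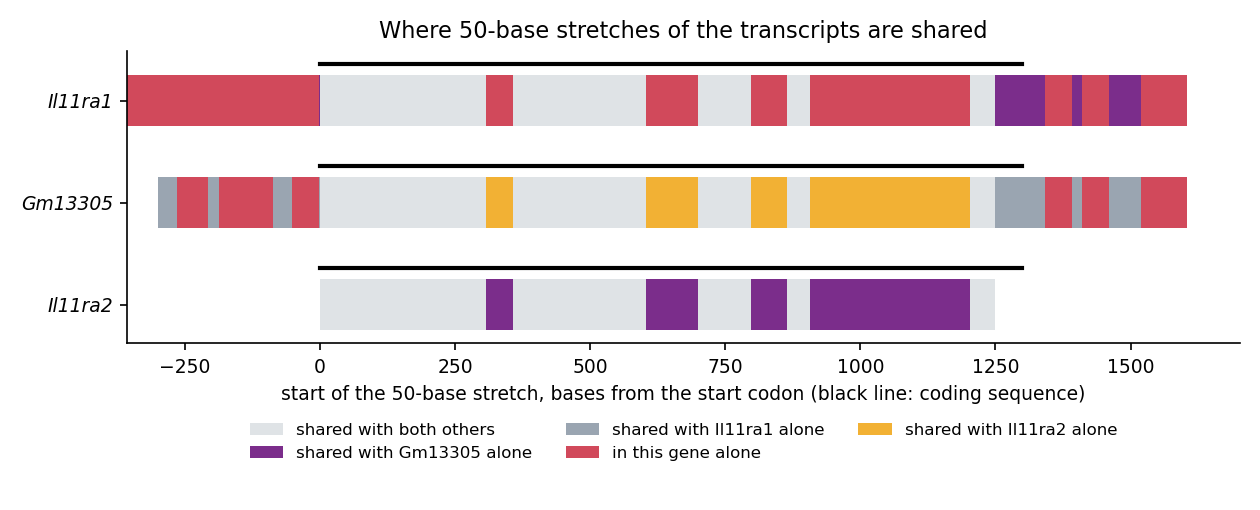
Every 50-base stretch of the GENCODE M21 transcripts of *Il11ra1*, *Gm13305* and *Il11ra2*, placed by its first base in bases from the start codon and colored by which of the other genes also hold it. Inside the coding sequence (black line) *Gm13305* has no stretch of its own. The *Il11ra2* transcript, which holds only the coding sequence in this annotation, has none.

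The gene models behind the table were not given in the sources used here. The table also lists *Gm2002*, whose RefSeq gene has the same length as that of *Il11ra2*, 10489 bases, against 9762 for *Gm13305*. The rows *Gm2002* and *Il11ra2* held equal values in all 6 libraries. Rows with such equal values were few, with 8 groups holding 18 of the 11274 rows above 0 in at least 3 libraries. Copies this alike may share reads, and the level of *Gm2002* cannot be told apart from that of *Il11ra2*.

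The cell makeup of the libraries was read from marker lists. Cells sorted for study of vascular smooth muscle held *Acta2* at 363 to 956 TPM, while the fibroblast marker *Dcn* was at 11604 to 14863 TPM. The sum of 8 fibroblast markers was 20667 to 21753 TPM in SHF and 29331 to 33918 TPM in CNC. Of the 8, 4 were higher in every CNC library, *Clec3b*, *Pi16*, *Col1a1* and *Ly6a*, against 5.68% of all tested genes. The lineages overlapped for *Pdgfra*, *Dcn*, *Lum* and *Dpt*. The 8 smooth muscle markers summed to 1444 to 3021 TPM in SHF and 1267 to 1980 TPM in CNC, which overlapped.

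*Gm13305* was listed at 12.83, 0 and 12.96 TPM in SHF and at 288, 406 and 175 TPM in CNC. The groups did not overlap, and the lowest CNC library was above every SHF library. The means were 8.60 ± 7.45 TPM in SHF and 289.9 ± 115 TPM in CNC (SD, n = 3 each), and the difference on the log2(TPM + 1) scale was 5.57 with an SE of 0.99, CNC minus SHF. These are the values the gene was chosen on.

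*Il11ra1*, the alpha receptor itself, was the most abundant member. It was listed at 479, 1006 and 329 TPM in SHF and at 1588, 1784 and 1195 TPM in CNC. All CNC libraries were above all SHF libraries, but SHF replicate 2 stood nearer to the lowest CNC library than to the other SHF libraries. The CNC mean of 1522 ± 300 TPM (SD, n = 3) was 2.52 times the SHF mean of 605 ± 356 TPM (SD, n = 3). The limma fit covered 10185 genes, those that reached 1 TPM in 3 or more libraries. The log2(TPM + 1) difference was -1.47, SHF minus CNC, with an SE of 0.38. The unadjusted limma p was 0.0026 and the Benjamini-Hochberg adjusted p 0.482, so the difference did not pass the threshold of 0.05. A two-sided exact permutation test over the 6 libraries gave p = 0.1, the smallest value that 3 libraries against 3 allow. The summed fibroblast markers were apart between lineages in the same direction as *Il11ra1* and *Gm13305*, and their part in those levels was not tested. In bulk libraries, fewer cells of a type and less RNA per cell cannot be told apart.

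*Il11ra2* was listed at no more than 2.18 TPM in any library. It had 2.11, 1.69 and 0 TPM in the SHF libraries and 0.28, 1.94 and 2.18 TPM in the CNC libraries, and the lineages overlapped (adjusted p = 0.984). In CNC its level was thus under 3 TPM in the same libraries in which *Gm13305*, with the same coding sequence, was at 175 TPM or more. Which bases separated those rows was not tested.

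The 3 rows were summed in each library, since the sum does not depend on how shared reads were divided among them, apart from the effect of unequal transcript lengths on TPM. The sum was 494, 1008 and 342 TPM in SHF and 1876, 2192 and 1373 TPM in CNC. Its CNC mean was 2.95 times its SHF mean, against 2.52 times for *Il11ra1* alone, and its log2 difference was 1.68 with an SE of 0.38, CNC minus SHF. As the sum contains *Gm13305*, this is a description as well. Adding *Gm2002* left the ratio at 2.95.

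*Gm13305* made up a different share of the sum in each lineage. The share was 2.60%, 0% and 3.79% in SHF and 15.4%, 18.5% and 12.8% in CNC, so the lineages did not overlap. The mean share was 2.13 ± 1.94% in SHF and 15.6 ± 2.88% in CNC (SD, n = 3 each). SHF replicate 2 had the highest *Il11ra1* level of its lineage and listed *Gm13305* at 0.

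**Figure D2:**
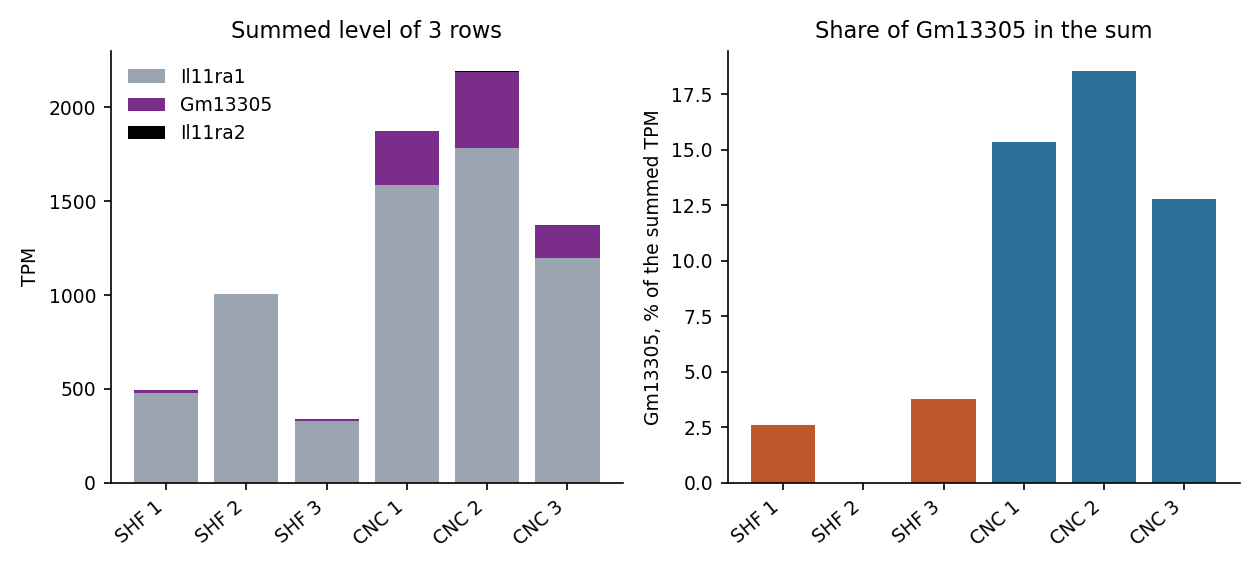
Summed TPM of *Il11ra1*, *Gm13305* and *Il11ra2* in each library (left, stacked bars) and *Gm13305* as a percentage of that sum (right). The share was at most 3.79% in the SHF libraries and at least 12.8% in the CNC libraries.

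Across lineages, 9 of the 10 members passed the filter on low values, all but *Il11*, and 8 of these were tested, leaving out *Gm13305*. In limma 0 of the 8 had an adjusted p under 0.05, as did 0% of all 10185 tested genes. Of the 8, 1 member, *Il11ra1*, had an unadjusted p under 0.05, against 5.86% of all tested genes. That member count was 2 without SHF replicate 2 and 0 when eBayes was run without a trend. The SHF and CNC libraries did not overlap for 2 of the 10 members, *Gm13305* and *Il11ra1*, against 11.8% of all tested genes. Both were higher in CNC, the direction of 5.68% of all tested genes, while 0 members were higher in every SHF library, against 6.11%. Because *Gm13305* was chosen on this contrast, its place in that count is not a finding.

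*Il6st*, the chain that the receptors of these cytokines share, was the second most abundant member by median level. It had 201, 192 and 354 TPM in the SHF libraries and 171, 373 and 246 TPM in the CNC libraries. The lineages overlapped throughout, and the whole range over the 6 libraries was 2.19-fold, the narrowest of the 5 members above 0 in every library. The log2 difference was -0.07 with an SE of 0.40, SHF minus CNC (adjusted p = 0.989).

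The ratio of *Il11ra1* to *Il6st* ran from 0.93 in SHF replicate 3 to 9.30 in CNC replicate 1. *Il11ra1* was above *Il6st* in 5 of 6 libraries. By contrast *Il6ra*, the alpha receptor for interleukin-6, was below *Il6st* in all 6, at a ratio of at most 0.17. *Il6ra* had 16.1, 0 and 12.5 TPM in the SHF libraries and 28.5, 8.24 and 12.7 TPM in the CNC libraries. These values overlapped (log2 difference -1.34, SE 1.40, adjusted p = 0.904), and without SHF replicate 2 the difference was -0.030. In the 5 libraries that listed *Il6ra* above 0, *Il11ra1* was between 26.2 and 216 times as high.

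*Lifr*, the signaling partner of gp130 for leukemia inhibitory factor, was listed at 38.5, 148 and 80.1 TPM in SHF and at 42.0, 79.4 and 56.2 TPM in CNC. SHF replicate 2 was the highest and SHF replicate 1 the lowest, so the CNC libraries lay within the SHF range (log2 difference 0.42, SE 0.59, adjusted p = 0.924). *Osmr*, the partner for oncostatin M, was listed at 61.3, 13.3 and 8.32 TPM in SHF and at 0.04, 55.1 and 42.5 TPM in CNC. Each lineage held both high and low libraries, with CNC replicate 1 the lowest of all (log2 difference 0.57, SE 1.53, adjusted p = 0.962).

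Among the ligands, *Il6* was the most abundant. It had 194, 11.4 and 126 TPM in the SHF libraries and 43.5, 64.0 and 53.2 TPM in the CNC libraries. The SHF libraries held both the highest and the lowest values, over a 17.04-fold range, while the CNC libraries differed by no more than 1.47-fold. The log2 difference was 0.32 with an SE of 0.90 (adjusted p = 0.962). *Il6* is also induced in cells by enzymatic dissociation, and the summed level of 10 dissociation response genes, among them *Fos* and *Atf3*, ran from 5117 TPM in SHF replicate 2 to 10832 TPM in SHF replicate 1. Those are also the libraries with the lowest and the highest *Il6*, and with the fewest and the most genes above 0. Within CNC the order was the reverse of that of *Il6*, with sums of 6857, 5751 and 6532 TPM. The part of dissociation in the *Il6* level was not tested.

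*Lif* had 26.1, 0 and 16.0 TPM in the SHF libraries and 34.9, 0 and 0 TPM in the CNC libraries. With 3 libraries at 0, the lineages overlapped (adjusted p = 0.926). *Il11*, the ligand of the receptor that *Il11ra1* encodes, was listed above 0 in SHF replicate 1, at 11.9 TPM, and in CNC replicate 3, at 5.47 TPM. The other 4 libraries listed it at 0, and it was not tested.

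**Figure D3:**
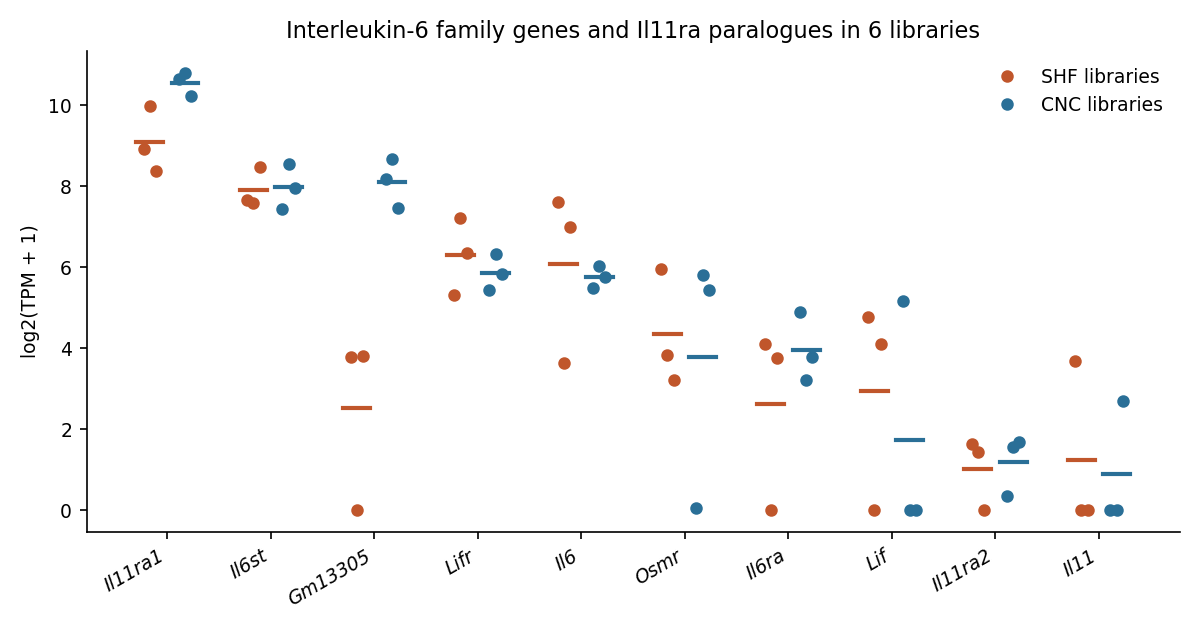
Levels of the 10 members as log2(TPM + 1) in the 3 SHF and 3 CNC libraries, ordered by their median over the 6 libraries. Points are libraries and bars are lineage means on this scale, and the lineages are apart for *Il11ra1* and *Gm13305*.

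By median over the 6 libraries, the order of levels was *Il11ra1* at 1101 TPM, *Il6st* at 224, *Gm13305* at 94.2, *Lifr* at 67.8, *Il6* at 58.6, *Osmr* at 27.9, *Il6ra* at 12.6, *Lif* at 8.02, *Il11ra2* at 1.82 and *Il11* at 0. Every pair of neighbors in this order had ranges that overlapped. The place of *Gm13305* differed between libraries, since it was above *Il6st* in 2 of 6 libraries, CNC replicates 1 and 2. In every SHF library it was at most 12.96 TPM and below both *Lifr* and *Il6*, so its median lies between the lineages.

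The rest of the gp130 pathway was described by 5 lists of 41 genes, all in the table, of which 6 were listed at 0 in every library and 28 passed the filter. In limma 0 of the 28 had an adjusted p under 0.05. At an unadjusted p under 0.05 there were 2 of 28, *Pim1* and *Adam10*, both higher in SHF, against 5.86% of all tested genes. That count was 0 without SHF replicate 3 or CNC replicate 1 and 4 without SHF replicate 1 or SHF replicate 2. The median log2 difference was 0.34, SHF minus CNC, over the 28 genes and 0.02 over all tested genes. Without SHF replicate 1 the pathway median was 0.016, without CNC replicate 1 it was 0.17, without SHF replicate 3 it was 0.20, and without SHF replicate 2 it was 0.52. The lineages did not overlap for 7 of the 28, that is 25%, against 11.8% of all tested genes, with *Adam10*, *Pim1* and *Icam1* higher in SHF and *Jak1*, *Tyk2*, *Socs1* and *Pias3* higher in CNC.

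Other ligands of the family were scarce. Of 9 genes, 5 were listed at 0 in every library, including *Osm*, the ligand for the receptor that *Osmr* encodes. *Clcf1*, which encodes cardiotrophin-like cytokine, reached 39.4 TPM in SHF replicate 1 and 48.3 TPM in CNC replicate 2, with 0 elsewhere. *Ctf1*, cardiotrophin 1, reached 5.40 TPM in SHF replicate 1, with 0 elsewhere.

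Of the 3 other receptors, *Il31ra* was listed at 0 in every library. *Il27ra*, the interleukin-27 receptor, ran from 0 to 34.7 TPM in SHF and from 0 to 18.9 TPM in CNC. *Cntfr*, the alpha receptor for ciliary neurotrophic factor, did not exceed 3.15 TPM. Neither passed the threshold (adjusted p = 0.964 and 0.971).

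Of the 7 signal transducers, *Stat3* and *Jak1* had the highest mean levels. *Stat3*, the main transcription factor of the pathway, was listed at 108, 158 and 66.6 TPM in SHF and at 102, 153 and 67.2 TPM in CNC. The lineages had nearly the same range (log2 difference 0.04, SE 0.49, adjusted p = 0.997). *Jak1*, the kinase bound to gp130, was listed at 105, 81.3 and 86.7 TPM in SHF and at 106, 132 and 141 TPM in CNC, so the lineages did not overlap, by a margin of under 2 TPM (log2 difference -0.47, SE 0.40, adjusted p = 0.895).

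Among adaptors and negative regulators, *Socs3* was the most abundant. It had 646, 383 and 782 TPM in the SHF libraries and 496, 458 and 536 TPM in the CNC libraries. It was above *Il6st* in all 6 libraries, by 1.23-fold to 3.22-fold, and the lineages overlapped (log2 difference 0.22, SE 0.32, adjusted p = 0.924). *Socs2*, another feedback inhibitor, ran from 79.0 to 340 TPM in SHF and from 52.5 to 83.4 TPM in CNC (adjusted p = 0.874). *Adam10*, a protease that sheds membrane proteins, was listed at 43.5, 142 and 54.2 TPM in SHF and at 10.2, 41.9 and 20.5 TPM in CNC (log2 difference 1.69, SE 0.75, unadjusted p = 0.045, adjusted 0.825).

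Of the known STAT3 targets, 10 were tested, and 8 had a positive and 2 a negative log2 difference, SHF minus CNC. The share of all tested genes with a positive difference was not counted, and their median difference was 0.02. In limma 0 of the 10 had an adjusted p under 0.05. At an unadjusted p under 0.05 there was 1, against 5.86% of all tested genes. *Pim1*, a survival kinase, was listed at 106, 39.0 and 68.2 TPM in SHF and at 7.70, 28.2 and 20.6 TPM in CNC (log2 difference 1.92, SE 0.75, unadjusted p = 0.027, adjusted 0.796). *Junb*, an AP-1 subunit, ran from 1205 to 2360 TPM in SHF and from 1057 to 1382 TPM in CNC (adjusted p = 0.874). *Timp1*, a metalloproteinase inhibitor, spread from 112 to 1164 TPM within SHF alone, and *Ccl2*, a monocyte chemokine, from 74.9 to 885 TPM. *Junb* is also among the 10 dissociation response genes, whose sums overlapped between the lineages.

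**Figure D4:**
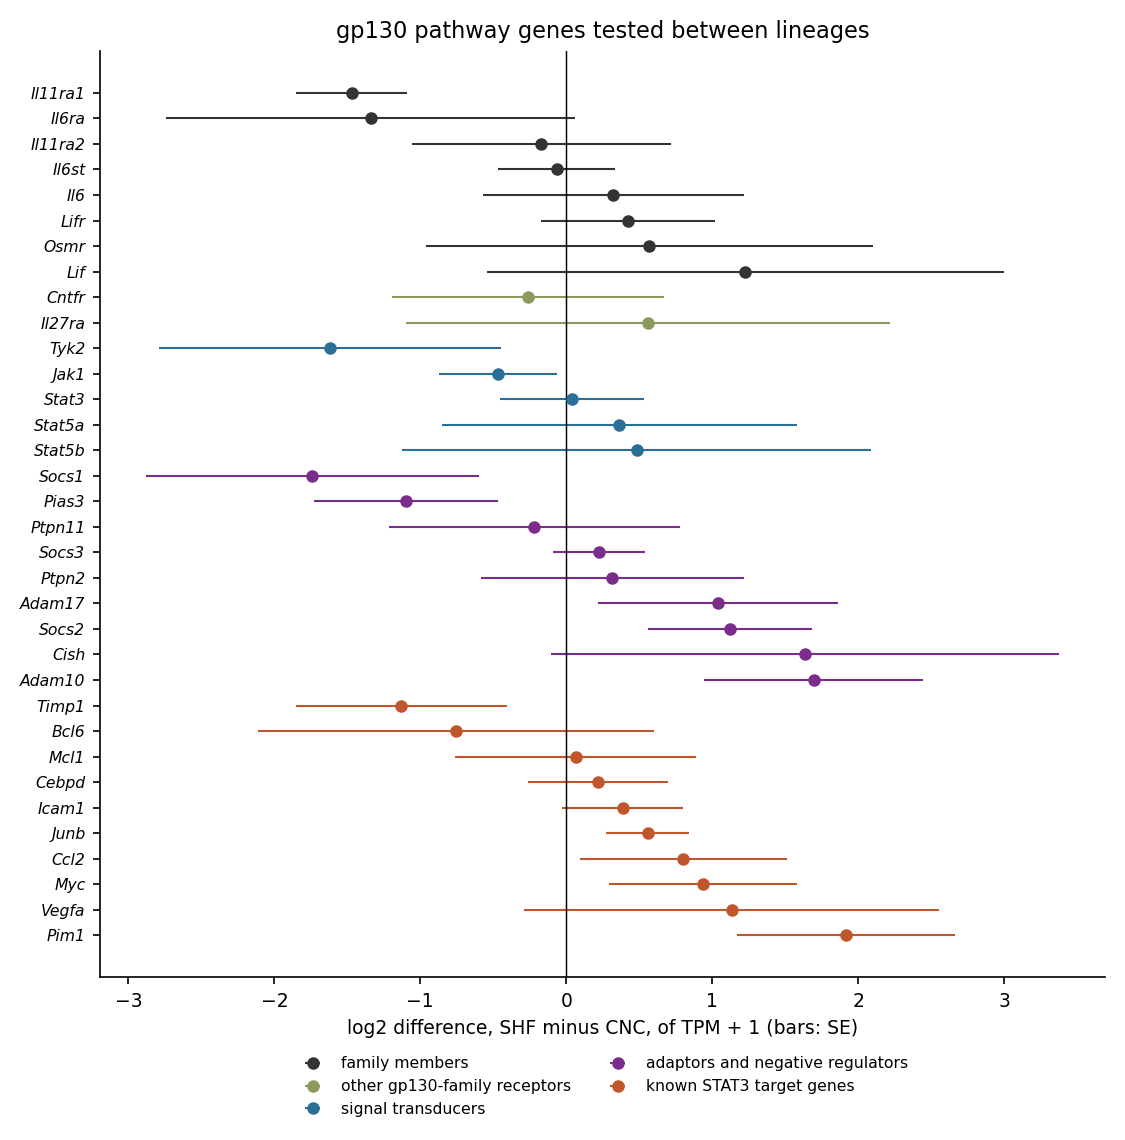
Log2 difference of TPM + 1, SHF minus CNC, for the 8 tested members and the tested genes of the other gp130 pathway lists that are reported here, grouped by role, with SE from limma as bars. None of those drawn had an adjusted p under 0.05.

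The genes around the *Il11ra* copies on chromosome 4 were examined because the region holds other duplicated genes. Of 28 neighbors 24 were in the table and 14 passed the filter. Of these 0 had an adjusted limma p under 0.05 and 0 an unadjusted p under 0.05. A negative log2 difference, SHF minus CNC, was found for 12 of the 14. The median was -0.53, against 0.02 over all tested genes. The lineages did not overlap for 4 of the 14, that is 28.6%, against 11.8% of all tested genes. All 4, *Dctn3*, *Gm20878* and *Fam205a2* included, were higher in CNC, the direction of 5.68% of all tested genes. The 14 rows were not all distinct, since *Ccl27b* and *Gm13306* held equal values and *Gm2002* repeated those of *Il11ra2*.

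*Dctn3*, a dynactin subunit, was listed at 36.6, 41.9 and 74.95 TPM in SHF and at 129, 92.8 and 76.4 TPM in CNC (log2 difference -0.98, SE 0.51, adjusted p = 0.874). *Ccl19*, a chemokine gene, had the highest mean of the neighbors over the 6 libraries and overlapped between lineages, from 436 to 567 TPM in SHF and from 388 to 769 TPM in CNC. *Dcaf12* ran from 15.3 to 64.4 TPM and *Rpp25l* from 0 to 139 TPM over the 6 libraries, and both overlapped.

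Rows of duplicated neighbors had other patterns of levels. *Gm1987* was listed at 631 TPM in SHF replicate 2 and at 1733 TPM in SHF replicate 3, and at 0 in the other 4 libraries. The rows *Ccl21c*, *Gm13304*, *Gm10591* and *Gm21541* held equal values in every library, 141 TPM in SHF replicate 3, 1.21 TPM in SHF replicate 1 and 0 elsewhere. *Ccl27b*, *Gm13306* and a further copy also held equal values, at most 4.58 TPM. Near copies of this kind may share reads, and how reads were divided among these rows was not tested.

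The genes whose levels across the 6 libraries were most like those of 5 members were found by Pearson's r of log2(TPM + 1) over 7363 genes, as a description. For *Gm13305* they were *Ppap2b* (r = 0.99), *Cwf19l2* (r = 0.98) and *Igfbp4* (r = 0.97). *Igfbp4*, which encodes an insulin-like growth factor binding protein, was at 2043 to 3101 TPM in SHF and at 5686 to 6538 TPM in CNC. *Il11ra1* came 1381st on this list, with r = 0.56. For *Il11ra1* the closest were *Bet1l*, *Praf2* and *Rpn2*, for *Il6st* they were *Atp6v1b2* and *Esco1*, for *Il6* they were *Ppp1r10*, *Mprip* and *Morf4l2*, and for *Osmr* they were *Morf4l1-ps1*, *Clptm1* and *Parp2*. With 6 libraries in 2 lineages, a gene that was apart between the lineages can rank high against *Gm13305* for that reason alone.

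Markers of other cell types were read in the same way. The 6 endothelial markers summed to 51.2 to 449 TPM in SHF and 21.8 to 37.9 TPM in CNC, with *Cdh5*, *Emcn* and *Tie1* at 0 in every CNC library. *Pecam1* was above 0 in every CNC library, at 9.72 to 37.9 TPM, and the lineages overlapped for *Pecam1*, *Kdr* and *Egfl7*. The 5 Schwann cell markers summed to 1.5 to 15.3 TPM in SHF and 21.4 to 66.1 TPM in CNC. The 5 cardiomyocyte markers summed to 87.4 to 116 TPM in SHF and 0 to 37.7 TPM in CNC. The 8 leukocyte markers summed to at most 33.3 TPM in SHF and 177 TPM in CNC, with *Ptprc* and *Cd3e* at 0 in every library. The part of these cells in the members' levels was not tested.

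The libraries also differed in sex-linked genes, with *Xist* above 5 TPM in SHF replicates 2 and 3 and *Ddx3y* above 5 TPM in the other 4. Among those 4, *Gm13305* had 12.8 TPM in SHF replicate 1 against 175 TPM or more in CNC, and *Il11ra1* had 479 TPM against 1195 TPM or more, with a single SHF library and so no test. Genes above 0 numbered from 9255 in SHF replicate 2 to 11858 in SHF replicate 1. SHF replicate 2, with the fewest, was also the library that listed *Gm13305* and *Il6ra* at 0.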

How the data were processed

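The authors amplified RNA of sorted GFP+ cells by the SmartSeq2 protocol, prepared libraries with Nextera XT, and used Bowtie2 and RSEM 1.2.25 on mm10 to make the TPM values they deposited in 1 table with a column for each library. The annotation and read length are not given in the sources used here. TPM keeps no read depth, so no counting interval could be given. The 6 columns were matched to libraries through their library codes. SHF was set against CNC by limma 3.58.1 (R 4.3.3), with lmFit and a trended eBayes, taking log2 of TPM with a pseudocount of 1 and no covariates. The fit held 10185 genes, those that reached 1 TPM in 3 or more of the 6 libraries, with Benjamini-Hochberg adjustment over all of them and a threshold of 0.05. This scale understates changes of low genes. The fit was tested on simulated data. The study calls the 3 libraries of each lineage biological replicates, and whether each came from 1 animal or from pooled animals is not given in the sources used here.

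The members and the gene lists were chosen with earlier results of these data known. Genes named were all 10 members, the 3 of highest mean level in each pathway list and any past the threshold, at most 6 chromosome 4 neighbors above 5 TPM, and the 3 genes most like each of 5 members among tested genes whose mean reached 10 TPM. *Icam1*, *Tyk2*, *Pias3*, *Pim1*, *Socs1*, *Gm20878*, *Fam205a2*, the copies of *Ccl21c* and *Ccl27b*, and the marker genes were named after their values were seen. Transcripts are from GENCODE M21 and upstream windows from RefSeq on GRCm38.p6, where 3 of the 3 *Il11ra* genes matched by symbol. Alternatives were other pseudocounts, filters, scalings and weights, a replicate block, summed paralogues and each library left out. Single-cell data of the study were not analysed here. Some genes that this rule names are not reported here, although they stay in the counts.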

Additional observations from a re-analysis of the deposited data

How the results depend on the processing

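In limma with Benjamini-Hochberg adjustment, 0 of the 8 tested members and 0 of the pathway genes passed the threshold in any of 16 alternative fits, of which 1 was the fit with the replicate number as a block. Over all genes the count was 0, except for 1 gene, *Gm13305*, with a pseudocount of 5. Of 122 values for the 8 members, 111 kept their direction and 11 did not, each of those with a library left out, and the cause was not tested. The lowest and highest log2 differences, SHF minus CNC, with a library left out were -0.59 and 0.34 for *Il11ra2* (positive without SHF replicate 3, CNC replicate 2 or CNC replicate 3), -0.44 and 1.55 for *Il6* (negative without SHF replicate 1 or 3), -0.35 and 0.22 for *Il6st* (positive without SHF replicate 1, SHF replicate 2 or CNC replicate 2), -0.041 and 0.91 for *Lifr* (negative without SHF replicate 2), and -1.29 and 1.59 for *Osmr* (negative without SHF replicate 1 or CNC replicate 1). The difference for *Il6ra* stayed negative, at -2.08 to -0.030, where SHF replicate 2 left out gave the weakest value, and that for *Lif* positive, from 0.37 (without CNC replicate 2 or 3) to 2.70 (without SHF replicate 2), where *Lif* passed the filter. *Gm13305* ran from -6.21 to -4.31 with a library left out. *Il11ra1* stayed negative, from -1.92 to -1.11, with adjusted p from 0.253 to 0.974 over all its alternatives. The replicate block gave -1.47 for *Il11ra1* (adjusted limma p = 0.782), and same-numbered libraries did not deviate together (correlations from -0.011 to -0.005). Whether they share more than a number is not given in the sources used here. The log2 difference of the summed *Il11ra* rows ran from -2.11 to -1.33 with a library left out. The share of *Gm13305* stretches also found in *Il11ra1* was 72.8% at 25 bases, 40.6% at 75 bases and 32.4% at 100 bases, since longer stretches meet more differences. Unknown depth and frequent values of 0 limit these comparisons.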
